A study of Mus musculus with 12 samples.

Results

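The effect of fibroblast growth factor 2 (FGF2) on Ocy454 cells whose FGF receptors were not inhibited was described by comparing 3 libraries of cells given DMSO and FGF2 with 3 libraries of cells given DMSO and control medium, which are 6 of the 12 libraries of the study. The libraries were chosen by their sample titles, and every gene that passed a filter on low counts was tested. Ocy454 is a mouse cell line used as a model of the osteocyte, and its cells mature when the culture is moved from 33 °C to 37 °C. The cells had differentiated for 5 days at the higher temperature, and both groups received the vehicle DMSO for 1 h before 2 ng/mL FGF2 or control medium was applied for 48 h. They were lysed on differentiation day 7 for sequencing of polyadenylated RNA. The other 6 libraries had the FGF receptor inhibitor BGJ398 at 200 nM in place of the vehicle, with or without FGF2, and entered here only the shared estimate of the spread and a test of the difference between the FGF2 effects. All groups are of 1 cell line, and the labels name triplicates without saying that they came from different cultures. Each p-value therefore sets an effect against library-to-library variation that may be technical only.

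FGF2 is a secreted growth factor that binds receptor tyrosine kinases of the FGFR family together with heparan sulfate on the cell surface. The active receptor recruits adaptor proteins and switches on the Ras to ERK cascade, the PI3 kinase to AKT branch and phospholipase C gamma, and transcription factors of the ETS and AP-1 families carry the signal to the genome. In the bone lineage FGF2 is known to favour the growth of early cells and to hold back the late steps of osteoblast maturation.

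Depth was 19723449 to 27716975 estimated reads in the 3 DMSO libraries and 21134996 to 25805890 in the 3 DMSO+FGF2 libraries, and counting error weighs most on genes at a few CPM. Values are given as CPM, each library's count scaled to a common depth, and CPM can be compared between groups but not between genes of different length. The first principal component of the 6 libraries held 39.3% of their variance and separated the groups, with DMSO at −23.7 to −15.2 and DMSO+FGF2 at 13.4 to 28.6. Within the FGF2 group replicate 2 stood apart, as 1 library did in each of the BGJ398 groups, and counts are also given below without these 3 libraries. It differed from replicates 1 and 3 by 11.9 and 11.5 times the variation that counting alone gives, against 4.59 between those 2 and 5.10 to 6.01 among the DMSO libraries. The osteocyte genes Sost and Mepe had 0 reads in all 6 libraries, Fgf23 had 2, Dmp1 18 and Phex 56, while the osteoblast factor Runx2 stood at 119 to 129 CPM in DMSO and 88.7 to 106.1 CPM with FGF2. Sost, Mepe, Fgf23, Dmp1 and Phex were thus absent or nearly so in cells labelled as osteocyte-like. Other genes of the same marker list were present. Pdpn stood at 25.4 to 29.0 CPM in DMSO and higher with FGF2, at 38.1 to 38.8 CPM. Sp7 stood at 19.5 to 23.3 CPM in DMSO and lower with FGF2, at 8.04 to 10.2 CPM. Of the defining genes of other cell types, the macrophage gene Adgre1 had 0 reads, the leukocyte gene Ptprc 1, the endothelial gene Pecam1 8 and the cartilage gene Acan 1 over the 6 libraries. Of 6 cartilage markers 3 were under 1 CPM and the others stood in both directions. Sox9 stood at 12.98 to 13.96 CPM in DMSO and 23.5 to 24.8 CPM with FGF2, Matn3 at 3.99 to 5.16 and 1.14 to 1.36 CPM, and Comp at 2.40 to 3.35 and 1.54 to 1.95 CPM. Of 5 tendon markers 2 had 0 reads, and Scx (37.8 to 42.7 CPM in DMSO) and Mkx (15.2 to 19.6 CPM) were present in both groups. Fmod, the highest of the list, stood at 1949 to 1998 CPM in DMSO and lower with FGF2, at 891 to 942 CPM. Long non-coding RNA genes are not analysed here.

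FGF2 changed the level of 1680 of the 12542 tested genes (13.4%) at an adjusted p under 0.05, and such genes are called below. Of these 950 (7.57% of those tested) were higher with FGF2 and 730 (5.82%) were lower. Most changes were small. The median absolute log2 fold change was 0.39 among the genes that rose and 0.38 among those that fell, and 75.7% of the first and 70.3% of the second changed by less than 1.5-fold. At least 2-fold changes were found in 176 genes (1.40%), 88 in each direction. The 3 libraries of one group did not overlap the 3 of the other for 4715 genes (37.6%), so a lack of overlap by itself is common in these data and is read below beside that share. At an unadjusted p under 0.05 there were 3277 genes (26.1%), the background for the unadjusted counts of lists below. The percent of a list that was called is likewise read beside the 13.4% of all tested genes. The FGF2 effect differed from that in cells with BGJ398 for 532 of the tested genes (4.24%) by edgeR's interaction test. The count of called genes was 1018 with DMSO replicate 3 left out, 1052 with DMSO replicate 2 left out, 1086 with FGF2 replicate 2 left out and 2611 without the 3 libraries that stood apart. In bulk cultures such as these, fewer cells of a kind and less RNA per cell cannot be told apart.

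**Figure D1:**
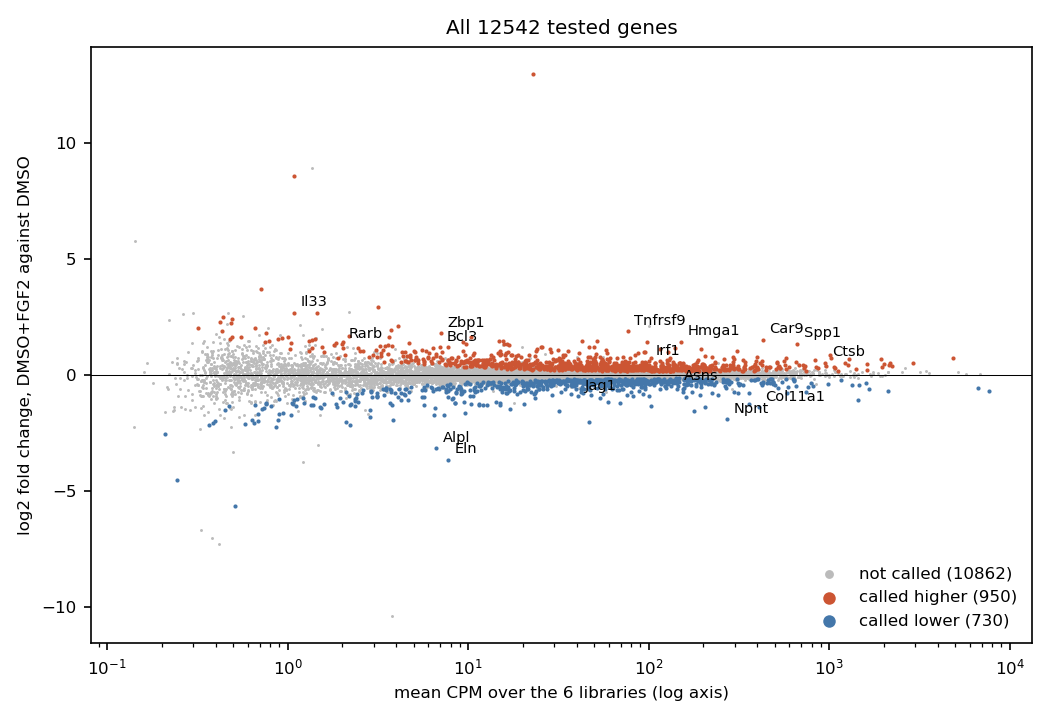
Each point is 1 of 12542 tested genes, placed by its mean CPM over the 6 libraries (x, log axis) and its log2 fold change with FGF2 (y). The 950 genes called higher are red, the 730 called lower are blue and the rest grey; called genes lie mostly within 1 log2 unit of 0, and the extreme points at low CPM include genes estimated at 0 in a whole group, whose fitted value is no measure of size.

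The 15 genes with the largest increase among well-expressed protein-coding genes included cell-surface proteins, enzymes of the hypoxic and secretory state, and secreted factors. Tnfrsf9 (ENSMUSG00000028965), a costimulatory receptor of the tumor necrosis factor family also called 4-1BB, measured 31.8, 35.3 and 30.02 CPM in the 3 DMSO libraries and 108, 132 and 122 CPM in the 3 DMSO+FGF2 libraries. The lowest FGF2 library was 3.05 times the highest DMSO library, and the log2 fold change was 1.90 ± 0.11 (SE, n = 3 libraries a group; edgeR adjusted p = 1.84e-07). Zbp1 (ENSMUSG00000027514), a sensor of Z-form nucleic acid that can start inflammatory cell death, measured 3.64, 3.16 and 2.74 CPM in the 3 DMSO libraries and 10.5, 13.4 and 8.94 CPM in the 3 DMSO+FGF2 libraries. Its libraries did not overlap, and it rose by 1.79 ± 0.18. Sema7a, a membrane-anchored semaphorin that binds integrins, measured 4.96, 4.47 and 5.55 CPM without FGF2 and 16.2, 16.1 and 14.6 CPM with it. Every FGF2 library was above every DMSO library (1.65 ± 0.12, adjusted p = 1.02e-06). Msln, which encodes the surface protein mesothelin, rose 2.77-fold from 22.8 ± 1.24 to 62.96 ± 1.36 CPM (SD, n = 3). Of the 5 mesothelial markers the other 4 were under 1 CPM, with 1 read of Upk3b and 2 reads of Wt1 over the 6 libraries, so Msln made up nearly all of their sum of 21.6 to 24.1 CPM in DMSO and 61.7 to 64.1 CPM with FGF2.

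Among the remaining leading genes, Chrnb1, a subunit of the muscle acetylcholine receptor, rose from 8.39 to 22.9 CPM, and Gpr35, a G-protein-coupled receptor, from 5.07 to 13.6 CPM. Plxdc1, a transmembrane receptor first described in tumor endothelium, rose from 5.49 to 13.98 CPM. Of the enzymes, the carbonic anhydrase Car9 rose from 222 to 635 CPM, Cda, a cytidine deaminase that salvages pyrimidines, from 7.95 to 21.6 CPM, and Cp, the copper-binding ferroxidase ceruloplasmin, from 53.9 to 143 CPM. Sdf2l1, a partner of the endoplasmic reticulum chaperone system, rose from 27.4 to 75.6 CPM, and Ndufa4l2, a hypoxia-induced subunit-like protein of the mitochondrion, from 8.89 to 22.6 CPM. The secreted members were Spp1, which encodes osteopontin, at 377 to 957 CPM, and Inhbb, the activin beta B chain, at 9.27 to 23.3 CPM. For each of these 10 genes the 3 FGF2 libraries lay above the 3 DMSO libraries, and replicate 2 of the FGF2 group was the highest of the 3 for all of them but Chrnb1 and Cp. Hmga1 also rose (1.44 ± 0.09), but 62.1% of its 31-base sequences occur in other genes, so its reads cannot be assigned with certainty. Just outside the 15 lay Vwa1 at 1.29 and Hmga2 at 1.22 on the log2 scale.

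The 15 most lowered genes were led by matrix and mineralization genes. Eln, which encodes elastin, measured 13.1, 13.1 and 16.8 CPM in the 3 DMSO libraries and 0.977, 0.938 and 1.52 CPM in the 3 DMSO+FGF2 libraries. The highest FGF2 library was well below the lowest DMSO library, and the log2 fold change was −3.66 ± 0.23 (adjusted p = 3.56e-07). Alpl, the tissue-nonspecific alkaline phosphatase, measured 12.4, 11.8 and 11.9 CPM without FGF2 and 1.29, 1.58 and 1.09 CPM with it, again without overlap (−3.18 ± 0.13, adjusted p = 8.69e-09). Npnt, Postn, Aspn, Tnc, Col11a1, Col27a1 and Hmcn1, all of which encode matrix proteins, fell by 1.38 to 1.90 on the log2 scale. The group also held genes outside the matrix. Pappa2 (ENSMUSG00000073530), a protease that frees insulin-like growth factors from their binding protein, measured 82.9, 75.2 and 66.6 CPM in the 3 DMSO libraries and 21.7, 15.6 and 17.3 CPM in the 3 DMSO+FGF2 libraries. The groups were far apart (−2.04 ± 0.12, adjusted p = 2.04e-07). Slit3, a secreted guidance ligand of Robo receptors, fell from 14.4 ± 0.969 to 4.65 ± 0.465 CPM (SD, n = 3), and Ptn, the heparin-binding growth factor pleiotrophin, from 147 ± 7.39 to 57.4 ± 0.532 CPM (SD, n = 3). Sorbs2, an adaptor of focal adhesions and the sarcomere Z-disc, fell from 25.1 to 8.96 CPM, Myom1, a structural protein of the sarcomere M-band, from 9.55 to 3.59 CPM, and Pi15, a secreted protein of the cysteine-rich CAP family, from 16.5 to 6.60 CPM. Just outside the 15 lay Ptgfr, the prostaglandin F receptor, at −1.31 and Atoh8 at −1.31.

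**Figure D2:**
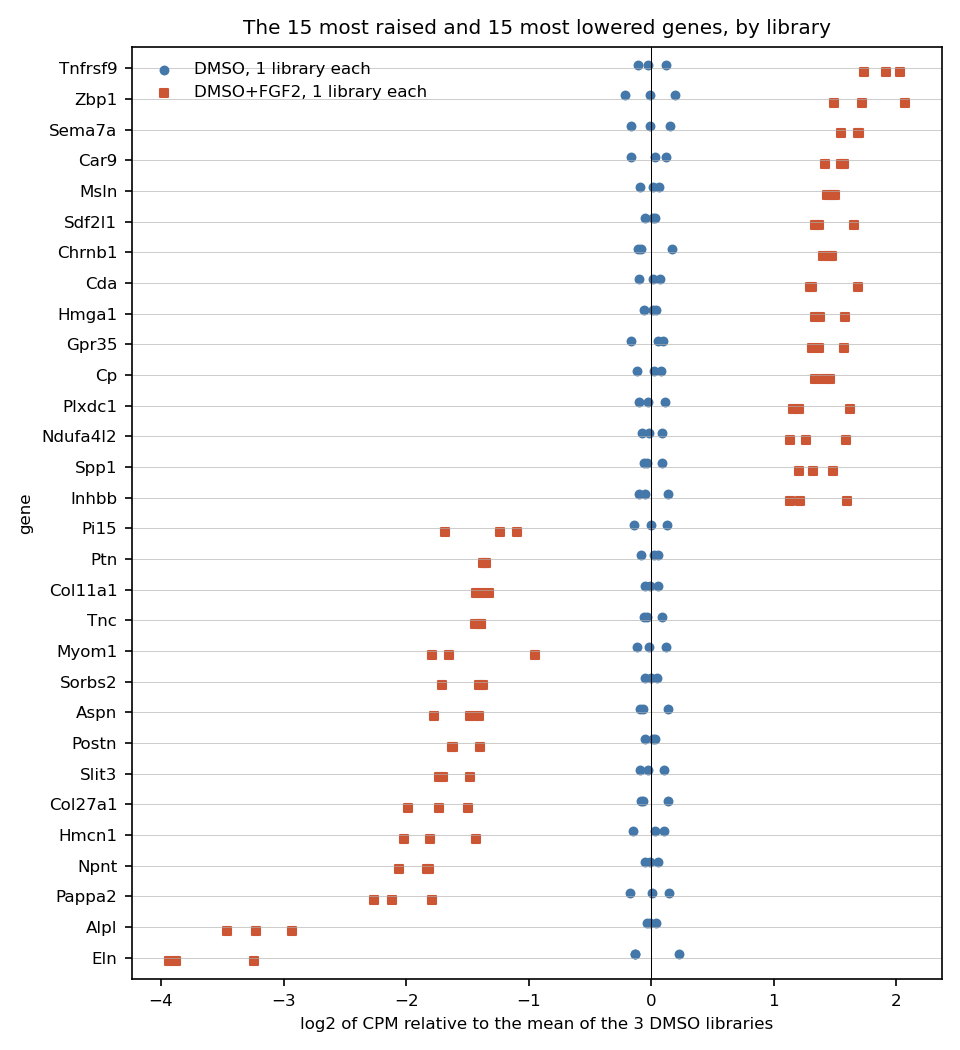
Each row is 1 of the 15 most raised and 15 most lowered genes, and each point is 1 library, drawn as log2 of its CPM relative to the mean of the 3 DMSO libraries (x). Circles are the 3 DMSO and squares the 3 DMSO+FGF2 libraries; no square overlaps a circle in any row, as the choice of genes required, and Eln and Alpl lie farthest to the left.

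In reads rather than folds, the largest gains among called genes were in Gapdh, Pkm, Bsg, Eno1 and Pgk1 and the largest losses in Col1a1, Col1a2, Fmod, Sparc and Col3a1. The enzymes of glycolysis share 22.9% to 54.7% of their 31-base sequences with other genes, chiefly in the case of Pgk1, whose call was lost without DMSO replicate 3. Bsg, which encodes basigin, the membrane chaperone of lactate transporters, rose from 1482 to 2367 CPM, and the tendon and matrix proteoglycan Fmod fell from 1964 to 929 CPM. All collagen genes together took 2.87%, 2.96% and 2.93% of the reads in DMSO and 1.85%, 2.03% and 1.84% with FGF2. The groups did not overlap, and the exact 2-sided permutation test gave p = 0.1, the smallest that 3 libraries against 3 allow.

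Genes that NF-κB, a family of transcription factors of inflammation and survival, is known to induce were mostly higher with FGF2. Of 16 tested members of this list 10 rose (62.5%, against 7.57% of all tested genes) and 0 fell, with a median log2 fold change of 0.29 against −0.0037 over all tested genes. At an unadjusted p under 0.05 edgeR gave 11 higher and 0 lower, and DESeq2 called 11 higher and 0 lower. Bcl3, an atypical inhibitor protein that acts as a coactivator in the nucleus, measured 4.75, 4.68 and 3.36 CPM in the 3 DMSO libraries and 8.79, 10.3 and 10.2 CPM in the 3 DMSO+FGF2 libraries. The lowest FGF2 library was 1.85 times the highest DMSO library, and the change was 1.20 ± 0.15 (adjusted p = 0.000103). Irf1, a transcription factor of the interferon response, measured 81.05, 79.6 and 81.2 CPM without FGF2 and 116, 129.8 and 116 CPM with it. The DMSO libraries were within 2 CPM of each other and all FGF2 libraries were higher (0.58 ± 0.07, adjusted p = 7.01e-05). Nfkb2, the p100 precursor of the alternative pathway, rose from 259.9 ± 1.90 to 318 ± 6.60 CPM (SD, n = 3), and Nfkbie, an inhibitor that holds the factors in the cytoplasm, from 28.2 ± 1.64 to 38.97 ± 2.31 CPM (SD, n = 3). Relb, Nfkb1, Nfkbia, Nfkbiz, Tnfaip3 and Vcam1 were the other members that rose. Sod2 (log2 fold change −0.09 ± 0.06), Traf1 (0.04 ± 0.29) and Birc3 (0.10 ± 0.08) did not pass the test. The count of members that rose was 9 or 10 with any 1 of the 6 libraries left out, and 10 without the 3 libraries of the study that stood apart.

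Promoter sequences were examined for this list because its members moved together. They run from 250 bases before to 50 bases after a RefSeq gene start in build GRCm38.p6, another build than that of the deposited quantification, and were matched by gene symbol for 9560 of the 12542 tested genes. The NF-κB word, which reads GGGA, any base, TT, any base and CC on either strand, was found in 146 of these 9560 genes (1.53%), in 18 of 716 genes called higher (2.51%) and in 5 of 548 called lower (0.912%). Of the 10 members that rose 6 had a promoter in the table, and 3 of them, Nfkbia, Nfkb2 and Bcl3, held the word. The AP-1 word was in as many of these 6 genes (Tnfaip3, Nfkbie and Nfkb2) and the STAT word in 2. The list was made of genes known to be induced by NF-κB, so its word may be frequent in them whatever FGF2 does. Members of the list that did not rise were not searched as a group, so these counts say nothing about FGF2. Of the 9 cytokine-list genes that rose and have a promoter in the table, 1 (Cxcl1) held the NF-κB word. Nfkbia (chosen after its values were seen) encodes the inhibitor IκBα and measured 43.99, 48.8 and 47.8 CPM without FGF2 and 59.2, 64.3 and 65.2 CPM with it. Tnfrsf9, the first of the 15 leading genes, held the NF-κB word and also the AP-1 word TGANTCA. The promoters of these 4 genes follow, 5′ to 3′ along the gene, to show where the words lie. Capitals mark the NF-κB word and, for Tnfrsf9, also the AP-1 word.
Nfkbia (GRCm38.p6 chr12:55492598-55492897, minus strand): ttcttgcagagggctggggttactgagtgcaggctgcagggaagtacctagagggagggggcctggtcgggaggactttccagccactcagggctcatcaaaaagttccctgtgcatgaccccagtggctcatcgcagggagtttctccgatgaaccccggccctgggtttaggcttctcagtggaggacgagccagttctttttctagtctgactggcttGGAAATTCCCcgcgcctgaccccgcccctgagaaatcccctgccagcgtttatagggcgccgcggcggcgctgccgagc
Nfkb2, 1 of its starts (GRCm38.p6 chr19:46304487-46304786, plus strand): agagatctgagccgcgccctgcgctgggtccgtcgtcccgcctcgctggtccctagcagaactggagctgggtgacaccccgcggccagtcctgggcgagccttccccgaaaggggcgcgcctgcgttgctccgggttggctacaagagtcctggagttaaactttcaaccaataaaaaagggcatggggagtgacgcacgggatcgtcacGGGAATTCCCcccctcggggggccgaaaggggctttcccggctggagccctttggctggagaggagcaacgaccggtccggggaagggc
Bcl3 (GRCm38.p6 chr7:19822706-19823005, minus strand): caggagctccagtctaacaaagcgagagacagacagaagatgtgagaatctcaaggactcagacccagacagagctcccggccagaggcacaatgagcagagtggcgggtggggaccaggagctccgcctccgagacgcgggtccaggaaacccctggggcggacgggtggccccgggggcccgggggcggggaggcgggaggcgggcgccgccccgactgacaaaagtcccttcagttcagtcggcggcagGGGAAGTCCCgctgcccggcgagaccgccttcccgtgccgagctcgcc
Tnfrsf9 (GRCm38.p6 chr4:150927749-150928048, plus strand): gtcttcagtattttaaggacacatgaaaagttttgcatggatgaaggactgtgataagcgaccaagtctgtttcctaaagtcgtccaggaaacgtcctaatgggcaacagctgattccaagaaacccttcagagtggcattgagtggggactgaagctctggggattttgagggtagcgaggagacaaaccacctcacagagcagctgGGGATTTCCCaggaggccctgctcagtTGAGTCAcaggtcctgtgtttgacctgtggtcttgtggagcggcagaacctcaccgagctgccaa
The NF-κB word began 29, 39 and 42 bases before the gene start in Nfkbia, Nfkb2 at the printed start and Tnfrsf9, and 2 bases after it in Bcl3. At other starts of Nfkb2, not printed, the NF-κB word began 10 bases after the start or 225 bases before it. The AP-1 word of Tnfrsf9 began 15 bases before the start. The AP-1 word was in 12% of the genes called higher, 7.30% of those called lower and 5.99% of all tested genes with a promoter. Its share among the leading genes as a set was not computed. The ETS word CCGGAAGT went the other way, with 3.91%, 1.64% and 9.47%. The other words searched on both strands were CRE TGACGTCA, the ATF4 composite TGATGCAA, STAT TTCNNNGAA, RUNX TGTGGTT, TEAD ACATTCC and the hypoxia response word ACGTG, which was the most frequent, in 30.4% of the genes called higher, 25.0% of those called lower and 29.2% of all. Words can overlap in a promoter and each was counted by itself. A match is a stretch of letters and not a bound site, and the shares were not tested.

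Cytokine genes and their receptors also changed, in both directions. Of 27 tested members 11 rose and 4 fell (55.6% called, against 13.4% of all genes), with a median of 0.43. Il1rl1 (ENSMUSG00000026069), the receptor of interleukin 33 also called ST2, measured 38.4, 35.1 and 33.9 CPM in the 3 DMSO libraries and 73.7, 64.95 and 61.7 CPM in the 3 DMSO+FGF2 libraries. No library of the groups overlapped (0.90 ± 0.08, adjusted p = 1.07e-05). Its ligand gene Il33, singled out after its values were seen, measured 0.202, 0.218 and 0.43 CPM without FGF2 and 1.76, 2.22 and 1.67 CPM with it. The level was low throughout, and the increase was 2.69 ± 0.46 (adjusted p = 0.00154). Il13ra1, a chain of the receptors of interleukins 4 and 13, rose from 13.3 ± 0.23 to 23.4 ± 0.806 CPM (SD, n = 3), and Socs3, the feedback inhibitor of JAK and STAT signaling, from 45.4 ± 3.48 to 72.5 ± 8.89 CPM (SD, n = 3). The chemokines Ccl2, Ccl5, Ccl9 and Cxcl1 and the receptors Osmr, Il4ra and Ackr3 were the other genes of the list that rose. Cxcl12, the chemokine that retains blood-forming cells in marrow, measured 926, 876 and 873 CPM without FGF2 and 677, 679 and 718 CPM with it. It was lower in all 3 FGF2 libraries (−0.37 ± 0.05, adjusted p = 0.000273), and Lifr, Socs2 and Cx3cl1 also fell. Il6st, the shared gp130 chain, did not pass the test (−0.02 ± 0.07). With DMSO replicate 2 or DMSO+FGF2 replicate 2 left out, 2 members in place of 4 were called lower.

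**Figure D3:**
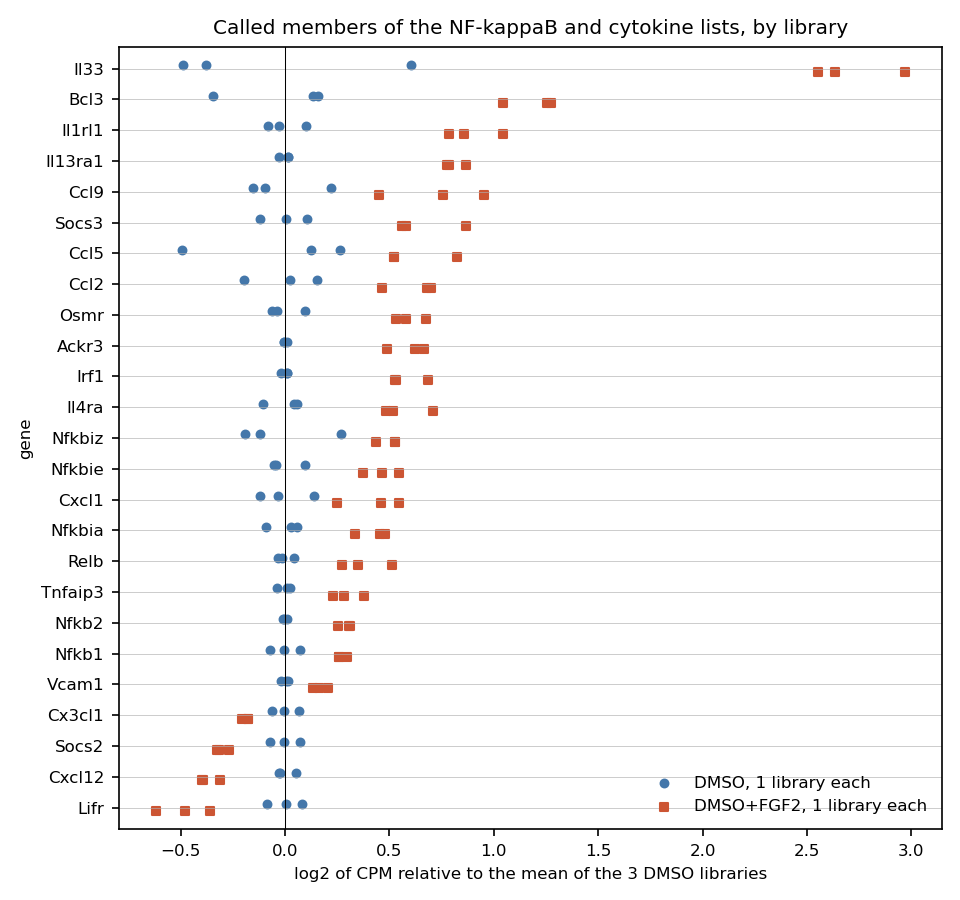
Rows are the 25 called members of the NF-κB and cytokine lists, and points are libraries, drawn as log2 of CPM relative to the mean of the 3 DMSO libraries (x). The squares (DMSO+FGF2) lie to the right of the circles (DMSO) for 21 genes and to the left for Cx3cl1, Socs2, Cxcl12 and Lifr; Il33 lies farthest right at a low level, with widely spread DMSO values.

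Of 38 proteasome subunits 2 rose and 1 fell (7.89% called, below the 13.4% of all genes), and the 2 that rose encode catalytic subunits of the immunoproteasome: Psmb10 went from 23.9 ± 2.18 to 42.8 ± 5.15 CPM and Psmb8 from 10.5 ± 1.67 to 19.8 ± 3.32 CPM (SD, n = 3). Psmd1, a regulatory subunit, was the member that fell, a call lost without DMSO replicate 3 or FGF2 replicate 2, and without the 3 libraries that stood apart 5 subunits were called lower. Of 19 genes named Ifi or Ifit 4 rose and 0 fell (21.1% called against 13.4% of all genes, median 0.28), and by edgeR at an unadjusted p under 0.05 the counts were 10 and 1. Ifitm3, a membrane protein that blocks virus entry, rose from 115 to 161 CPM, and Ifih1, a sensor of double-stranded RNA, from 17.8 to 22.9 CPM. For Ifitm3, 20.5% of the 31-base sequences occur in other genes. Without DMSO replicate 2 or 3 the count fell to 2. Cd68, a lysosomal glycoprotein used as a macrophage marker, rose from 1.53 to 5.95 CPM, while the macrophage gene Adgre1 had 0 reads and the sum of the 6 macrophage markers was 5.40 to 5.61 CPM in DMSO and 8.66 to 10.6 CPM with FGF2. Cd68 carried that difference, since Lyz2 stood lower with FGF2 (0.788 to 1.05 CPM in DMSO and 0.291 to 0.507 CPM with it) and Cd14 and Csf1r overlapped between groups. Whether macrophages had a part in these values was not tested.

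Components of receptor tyrosine kinase signaling other than the FGF system changed in both directions. Of 9 tested genes of the EGF family and its receptors 3 rose and 2 fell (55.6% called, against 13.4% of all genes). Errfi1 (ENSMUSG00000028967), a feedback inhibitor of the EGF receptor, measured 62.6, 58.8 and 58.3 CPM in the 3 DMSO libraries and 122, 115 and 109 CPM in the 3 DMSO+FGF2 libraries. FGF2 libraries were at least 1.74 times the highest DMSO library (0.94 ± 0.07, adjusted p = 9.96e-07). Lrig1, which marks ErbB receptors for degradation, measured 53.1, 52.4 and 52.9 CPM without FGF2 and 93.1, 93.8 and 86.4 CPM with it and rose by 0.79 ± 0.05. The ligand gene Ereg, epiregulin, rose from 1.03 to 2.55 CPM, and the ligand gene Hbegf did not pass the test (0.34 ± 0.15). Lrig3 and Egfr fell (−0.21 ± 0.05 and −0.33 ± 0.10), but the count of members called lower was 0 when any of the 3 DMSO libraries or FGF2 replicates 1 or 2 was left out and 1 without FGF2 replicate 3.

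Of 34 genes of the Ras, MAPK and PI3K cascade, which carries the FGF signal inward, 7 rose and 2 fell (26.5% called, against 13.4% of all genes), and their median was −0.01. With length and GC offsets 12 rose. Gab1, the docking protein that links FGF receptors to PI3 kinase, measured 65.3, 70.4 and 69.5 CPM in the 3 DMSO libraries and 51.9, 49.8 and 49.7 CPM in the 3 DMSO+FGF2 libraries. It was lower in every FGF2 library (−0.44 ± 0.06, adjusted p = 0.000411). Mapk3, which encodes ERK1, rose from 203 ± 3.92 to 260.4 ± 14.4 CPM, and Map2k1, its activating kinase MEK1, from 104 ± 4.92 to 131 ± 8.23 CPM (SD, n = 3). Shc1, an adaptor of activated receptors, rose by 0.22 ± 0.04. The count of members called lower was 1 with any 1 library left out and 4 without the 3 libraries that stood apart. Of 22 other receptor tyrosine kinases and ligands 3 rose and 3 fell (27.3% called, against 13.4% of all genes). Axl rose from 457 ± 4.21 to 598 ± 5.59 CPM (SD, n = 3) while its ligand gene Gas6 fell from 263 ± 11.99 to 194 ± 8.58 CPM (SD, n = 3). The count of those that fell was 6 without the 3 libraries that stood apart.

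Ephrins and Eph receptors, membrane proteins that signal between touching cells, were more often lower than higher, with 5 of 17 down and 2 up (41.2% called). Efna5 measured 38.4, 37.4 and 37.4 CPM in the 3 DMSO libraries and 22.5, 17.98 and 20.5 CPM in the 3 DMSO+FGF2 libraries. Every FGF2 library was lower (−0.89 ± 0.09, adjusted p = 1.65e-05). The receptor gene Epha3 fell from 139 ± 3.78 to 91.1 ± 9.37 CPM and the ligand gene Efnb1 from 54.3 ± 3.03 to 38.8 ± 2.66 CPM (SD, n = 3). Efnb2, a ligand of EphB4, rose instead and measured 42.02, 43.9 and 42.7 CPM without FGF2 and 72.2, 66.5 and 63.2 CPM with it (0.65 ± 0.08). Its receptor gene Ephb4 did not pass the test (−0.01 ± 0.06).

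Of 23 genes of the Notch pathway, which also needs contact between cells, 4 fell and 1 rose (21.7% called). The ligand gene Jag1 (ENSMUSG00000027276) measured 54.05, 55.1 and 50.3 CPM in the 3 DMSO libraries and 29.8, 24.9 and 29.3 CPM in the 3 DMSO+FGF2 libraries. All FGF2 values were below all DMSO values (−0.93 ± 0.11, adjusted p = 7.95e-05). Lfng, the glycosyltransferase that tunes Notch receptors, fell from 25.5 ± 1.83 to 16.7 ± 1.27 CPM, and Hes1, a direct target of the pathway, from 10.99 ± 0.962 to 7.14 ± 0.261 CPM (SD, n = 3). Heyl, another target gene, was the fourth member that fell. Hes6, which opposes Hes1, rose by 0.46 ± 0.07. The receptor genes Notch1 (−0.17 ± 0.12) and Notch3 (0.04 ± 0.10) did not pass the test. Without the 3 libraries that stood apart 7 members were called lower.

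Of 14 Hedgehog pathway genes 4 fell and 0 rose (28.6% called, against 13.4% of all genes), in a list whose median was −0.15. By edgeR at an unadjusted p under 0.05 the counts were 5 lower and 0 higher, and DESeq2 called 4 lower and 0 higher. Smo, the signal transducer of the pathway, measured 269, 291 and 293 CPM without FGF2 and 226, 231 and 231 CPM with it. All 3 FGF2 values were below all 3 DMSO values (−0.31 ± 0.05, adjusted p = 0.00144). Gli2, the main activating transcription factor, fell by 0.43, Kif7, a kinesin of the primary cilium, by 0.42 and Boc, a coreceptor, by 0.28 on the log2 scale. Gli1, a direct target gene, did not pass the test (−0.35 ± 0.27) at about 1 CPM. The count was 2 without DMSO replicate 2, DMSO replicate 3 or FGF2 replicate 1, and 7 without the 3 libraries that stood apart.

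Nuclear receptor and retinoid genes split, with 6 of 24 higher and 4 lower (41.7% called). Crabp2 (ENSMUSG00000004885), which carries retinoic acid to its receptors, measured 35.4, 39.5 and 36.4 CPM in the 3 DMSO libraries and 69.8, 95.8 and 70.2 CPM in the 3 DMSO+FGF2 libraries. The FGF2 libraries were all higher, replicate 2 most (1.08 ± 0.14, adjusted p = 0.000131). Nr2f1, the orphan receptor COUP-TFI, rose from 12.2 ± 0.31 to 19.96 ± 2.34 CPM (SD, n = 3). Rarb, a receptor that is itself a retinoic acid target and was singled out after its values were seen, rose from 1.14 to 2.88 CPM (1.34 ± 0.29), and 32.1% of its 31-base sequences are shared with other genes. Nr4a1, an immediate early gene, measured 30.8, 30.5 and 27.99 CPM without FGF2 and 18.9, 14.6 and 17.6 CPM with it and fell by 0.80 on the log2 scale, and Tsc22d3, the glucocorticoid-induced leucine zipper, fell by 0.51. The related gene Nr4a2 did not pass the test (−0.13 ± 0.13). Without the 3 libraries that stood apart 7 members were called lower.

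Many calcium-dependent membrane and signaling proteins were higher with FGF2. Of 10 annexins, which bind phospholipid in the presence of calcium, 6 rose and 0 fell (60.0% called, median 0.28), and of 10 S100 proteins 5 rose and 0 fell (50% called, median 0.45). At an unadjusted p under 0.05 edgeR gave 9 annexins higher and 1 lower and 6 S100 genes higher and 0 lower, and DESeq2 called 7 and 6 higher and 0 lower of either. Anxa8 measured 4.25, 5.45 and 4.38 CPM in the 3 DMSO libraries and 11.2, 11.2 and 10.1 CPM in the 3 DMSO+FGF2 libraries. The groups did not overlap (1.20 ± 0.15, adjusted p = 0.000131). Anxa1, an effector of the glucocorticoid response, rose from 293 ± 10.3 to 392 ± 20.2 CPM (SD, n = 3), and Anxa4 and Anxa3 by 0.28 ± 0.05 and 0.34 ± 0.07. Anxa6 did not pass the test (−0.16 ± 0.06). S100a10, the partner of annexin A2, rose from 221 ± 3.39 to 294 ± 16.9 CPM, S100a6 from 425 ± 19.7 to 599 ± 37.4 CPM and S100a1 from 26.7 ± 0.57 to 38.8 ± 3.58 CPM (SD, n = 3). S100a4 rose by 0.67 ± 0.10, with 49.2% of its 31-base sequences found in other genes.

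Of 20 phospholipases 7 rose and 1 fell (40.0% called), including Plcd1 (0.31 ± 0.06), Pld2 (0.31 ± 0.06) and Plcb3 (0.28 ± 0.06), enzymes that cleave membrane lipids into second messengers. Plcd1 and Plcb3 make inositol trisphosphate and Pld2 makes phosphatidic acid. Plce1 fell (−0.60 ± 0.14), a call lost without DMSO replicate 2 or FGF2 replicate 2. The count of those that rose was 3 without DMSO replicate 1 and 4 without DMSO replicate 3, FGF2 replicate 2 or FGF2 replicate 3. Sphk1, the kinase that makes sphingosine 1-phosphate, measured 14.4, 14.7 and 16.5 CPM in the 3 DMSO libraries and 28.6, 40.5 and 28.9 CPM in the 3 DMSO+FGF2 libraries. Its FGF2 libraries were at least 1.73 times the highest DMSO library, replicate 2 most (1.10 ± 0.12, adjusted p = 4.86e-05). Plpp3, a phosphatase that removes lysophosphatidic acid and sphingosine 1-phosphate, fell from 17.9 to 13.9 CPM.

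Of 41 tested lysosomal enzymes and membrane proteins 10 rose and 2 fell (29.3% called, against 7.57% higher and 5.82% lower over all genes), in a list whose median was 0.06. Ctsb (ENSMUSG00000021939), the protease cathepsin B, measured 776, 786 and 777 CPM in the 3 DMSO libraries and 1083, 1223 and 1066 CPM in the 3 DMSO+FGF2 libraries. Each FGF2 library exceeded each DMSO library (0.53 ± 0.06, adjusted p = 9.67e-05). Psap, which yields the saposin activators of sphingolipid breakdown, rose from 1940.0 ± 38.6 to 2499.9 ± 188 CPM (SD, n = 3), Tpp1, a tripeptidyl peptidase, by 0.27 ± 0.05 and Ctsa, a protective carboxypeptidase, by 0.35 ± 0.07. Lamp2, a main protein of the lysosomal membrane, did not pass the test (0.02 ± 0.06). The count of those that rose was 4 with DMSO replicate 3 left out, 5 with replicate 2 of either group left out, and 14 without the 3 libraries that stood apart. The 2 called lower became 0 without DMSO replicate 2 or FGF2 replicate 2, 1 without DMSO replicate 1, DMSO replicate 3 or FGF2 replicate 1, and 4 without the 3 libraries. Of 27 autophagy genes 5 rose and 0 fell (18.5% called, near the 13.4% of all genes), and by edgeR at an unadjusted p under 0.05 the counts were 7 and 0, close to the 26.1% of all genes, so the count is not read as a result about the list. Bnip3 and Bnip3l, receptors for the removal of mitochondria, rose from 192 ± 20.2 to 275 ± 37.3 CPM and from 126 ± 6.86 to 158 ± 12.8 CPM (SD, n = 3). They share 20.3% and 23.7% of their 31-base sequences with other genes, and the Bnip3 call was lost without DMSO replicates 1 or 3 or FGF2 replicates 2 or 3. Becn1 (0.06 ± 0.05) and Sqstm1 (0.20 ± 0.08) did not pass the test. The count of autophagy genes that rose was 1 without DMSO replicate 1 or 3, 2 without FGF2 replicate 2 and 3 without any 1 of the other libraries. Without the 3 libraries that stood apart it was 8.

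Of 21 genes of serine and one-carbon metabolism 7 fell and 2 rose (42.9% called, against 5.82% lower and 7.57% higher over all genes), with a median of −0.06. Asns (ENSMUSG00000029752), asparagine synthetase, measured 165, 169 and 176 CPM in the 3 DMSO libraries and 123, 121 and 117 CPM in the 3 DMSO+FGF2 libraries. The lowest DMSO library was well above the highest FGF2 library (−0.50 ± 0.07, adjusted p = 0.000226). Mthfd2, the mitochondrial folate enzyme, fell from 188 ± 5.49 to 143 ± 4.39 CPM, and Pycr1, which makes proline, from 56.3 ± 2.30 to 41.9 ± 4.26 CPM (SD, n = 3). Aldh1l2, another mitochondrial enzyme of folate metabolism, fell from 221 ± 10.2 to 167 ± 15.9 CPM (SD, n = 3). Phgdh, the first enzyme of serine synthesis, and Shmt2 did not pass the test (−0.22 ± 0.09 and −0.12 ± 0.06), and 55.5% of the 31-base sequences of Phgdh are shared with other genes. The 2 called higher became 0 without DMSO replicate 1 or 2 and 1 without any 1 of the other 4 libraries or without the 3 that stood apart.

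Of 20 amino acid transporters 5 fell and 1 rose (30% called, against 13.4% of all genes). Slc7a5, the large neutral amino acid transporter, measured 543, 566 and 554 CPM without FGF2 and 411, 447 and 412 CPM with it. There was no overlap between groups (−0.39 ± 0.05, adjusted p = 0.000213). Slc1a3, a glutamate and aspartate transporter, fell from 29.4 ± 1.91 to 16.6 ± 0.726 CPM (SD, n = 3), and Slc7a1, which imports arginine and lysine, by 0.39 on the log2 scale. Slc38a2 did not pass the test (0.08 ± 0.08). The count of those that fell was 3 without DMSO replicates 1 or 3 or FGF2 replicates 2 or 3, and 9 without the 3 libraries that stood apart. The 1 called higher became 0 without DMSO replicate 2 and 3 without the 3 libraries. Of 20 aminoacyl-tRNA synthetases, which load amino acids onto tRNA, 4 fell and 1 rose (25% called, against 13.4% of all genes). Eprs fell from 473 ± 4.50 to 366 ± 4.50 CPM and Mars from 154 ± 6.08 to 119 ± 6.30 CPM, while Wars, the synthetase for tryptophan and an interferon-induced gene, rose from 72.4 ± 2.69 to 89.3 ± 4.19 CPM (SD, n = 3). Without the 3 libraries that stood apart 10 synthetases were called lower and 2 higher.

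Of 34 chromatin regulators 2 rose and 6 fell (23.5% called). Hmga2 (ENSMUSG00000056758), an architectural protein of immature and dividing cells, measured 27.7, 27.99 and 28.1 CPM in the 3 DMSO libraries and 66.4, 63.2 and 65.1 CPM in the 3 DMSO+FGF2 libraries. The groups did not overlap (1.22 ± 0.07, adjusted p = 1.95e-07), and the related Hmga1 was the other member that rose. Tet1, which oxidizes methylcytosine, fell from 5.75 ± 0.41 to 2.71 ± 0.673 CPM, and Hdac2, a histone deacetylase, from 138 ± 1.45 to 116 ± 4.34 CPM (SD, n = 3). Dnmt3a, a DNA methyltransferase and named after its values were seen, fell by 0.48 on the log2 scale. The maintenance methyltransferase Dnmt1 (−0.05 ± 0.05) and Ezh2, the histone methyltransferase of Polycomb (−0.05 ± 0.05), did not pass the test. Of 12 imprinted genes, which are expressed from 1 parental copy, 5 fell and 0 rose (41.7% called, against 13.4% of all genes). The counts were 6 and 0 by edgeR at an unadjusted p under 0.05 and 5 and 0 by DESeq2. Grb10, an adaptor that restrains insulin and growth factor receptors, measured 249, 252 and 253 CPM without FGF2 and 200.1, 180.4 and 198 CPM with it and fell by 0.38 on the log2 scale, and Peg12 fell from 18.4 to 12.8 CPM. Igf2 fell by 0.99 with 61.9% of its 31-base sequences shared with other genes, and Gnas did not pass the test (0.02 ± 0.06). The count of imprinted genes that fell was 3 without any 1 library other than FGF2 replicate 2.

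Of 13 ADAMTS proteases, secreted enzymes that cut matrix proteoglycans and other extracellular proteins, 6 fell and 4 rose (76.9% called). Adamts9 measured 14.1, 16.2 and 13.8 CPM in the 3 DMSO libraries and 6.95, 6.26 and 4.85 CPM in the 3 DMSO+FGF2 libraries and fell without overlap (−1.28 ± 0.14, adjusted p = 3.26e-05). Adamts12 fell from 29.2 ± 1.53 to 18.1 ± 2.98 CPM and Adamts1 from 87.2 ± 5.61 to 57.2 ± 2.65 CPM (SD, n = 3). Adamts7, which cuts cartilage oligomeric matrix protein, rose instead and measured 3.64, 3.09 and 3.13 CPM without FGF2 and 6.64, 6.65 and 6.76 CPM with it (1.03 ± 0.13, adjusted p = 0.000142). The 4 called higher became 2 without any 1 library other than FGF2 replicate 3.

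Both tested metallothioneins, which bind zinc and copper, rose: Mt2 from 30.2 ± 2.30 to 68.9 ± 6.65 CPM and Mt1 from 294 ± 18.4 to 501 ± 61.9 CPM (SD, n = 3). Of 17 clock genes 3 rose and 1 fell (23.5% called, against 13.4% of all genes). The repressors Bhlhe40 (0.76 ± 0.08) and Bhlhe41 (0.52 ± 0.07) were among those that rose. Among 47 splicing regulators 2 rose and 2 fell (8.51%, against 13.4% of all genes), and Celf2, an RNA-binding regulator of exon choice, rose from 9.90 ± 1.08 to 19.3 ± 0.925 CPM (SD, n = 3). The 2 called lower became 0 or 1 without any 1 library other than FGF2 replicate 3. Of 16 mesenchymal progenitor markers 5 rose and 5 fell (62.5% called, against 13.4% of all genes). Ly6a, also called Sca-1, rose by 1.19 ± 0.11 (31.6% of its 31-base sequences shared). Prrx1, a transcription factor of limb mesenchyme, fell from 529.5 ± 3.15 to 415 ± 19.04 CPM (SD, n = 3). The progenitor counts were 3 higher without DMSO replicates 1 or 2 or FGF2 replicate 2, and 3 lower without any 1 library other than FGF2 replicate 3. Of 37 kinesins, motor proteins of microtubules, 7 fell and 1 rose (21.6% called, against 13.4% of all genes). The members that fell were Kif7, Kif20a (−0.25 ± 0.06, 26.7% of its 31-base sequences shared), Kif18b (−0.24 ± 0.06), Kif23, Kif14, Kif22 and Kif11. Kifc3 was the member that rose, by 0.54 ± 0.06 (21.1% of its 31-base sequences shared). The kinesin count of those that fell was 1 without DMSO replicate 2, DMSO replicate 3 or FGF2 replicate 1 and 3 without FGF2 replicate 2 or 3, and 4 kinesins were called higher without the 3 libraries that stood apart.

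Among large families, 29 of 197 solute carriers were called (14.7%, near the 13.4% of all genes), 21 higher and 8 lower. The 21 became 13 without DMSO replicate 2 or 3, and the 8 became 4 without DMSO replicate 1 or 3, 5 without DMSO replicate 2 or FGF2 replicate 2, and 17 without the 3 libraries that stood apart. Of 332 zinc finger genes named Zfp 14 were called (4.22%), 5 higher and 9 lower, and Zfp521, a regulator of early mesenchymal cells, fell by 0.51 on the log2 scale. The 5 called higher became 2 without DMSO replicates 2 or 3 or FGF2 replicate 3, the 9 called lower became 3 to 5 without any 1 library other than FGF2 replicate 3, and the counts were 9 and 16 without the 3 libraries that stood apart. Of 83 ribosomal protein genes edgeR called 0, with 5 higher and 0 lower at an unadjusted p under 0.05 and 0 by DESeq2, but 13 were called higher in a fit of the 6 libraries alone or without the 3 libraries that stood apart. Of 78 mitochondrial ribosomal proteins edgeR and DESeq2 called 0, with 1 higher and 2 lower at an unadjusted p under 0.05. In the small set of 10 genes of the replicative helicase and its relatives named Mcm edgeR and DESeq2 called 0, and 0 passed at an unadjusted p under 0.05.

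Other settings moved some of these counts by over 1.5 times. With counts rebuilt from TPM and length, 7 cytokine genes rose and 1 fell, 6 lysosomal genes, 3 phospholipases and 2 genes named Ifi or Ifit rose, and 3 imprinted genes, 3 chromatin regulators, 3 kinesins and 3 amino acid transporters fell. With length and GC offsets 8 genes named Ifi or Ifit, 4 proteasome subunits and 32 solute carriers rose, and 4 proteasome subunits and 13 solute carriers fell. Of the Notch list 7 genes fell with those offsets, with DESeq2 or with the 6 libraries alone, and of the synthetases 7 fell with the 6 libraries alone. Of the other receptor tyrosine kinases and ligands 5 fell with the rebuilt counts, with the offsets or with the 6 libraries alone.

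**Figure D4:**
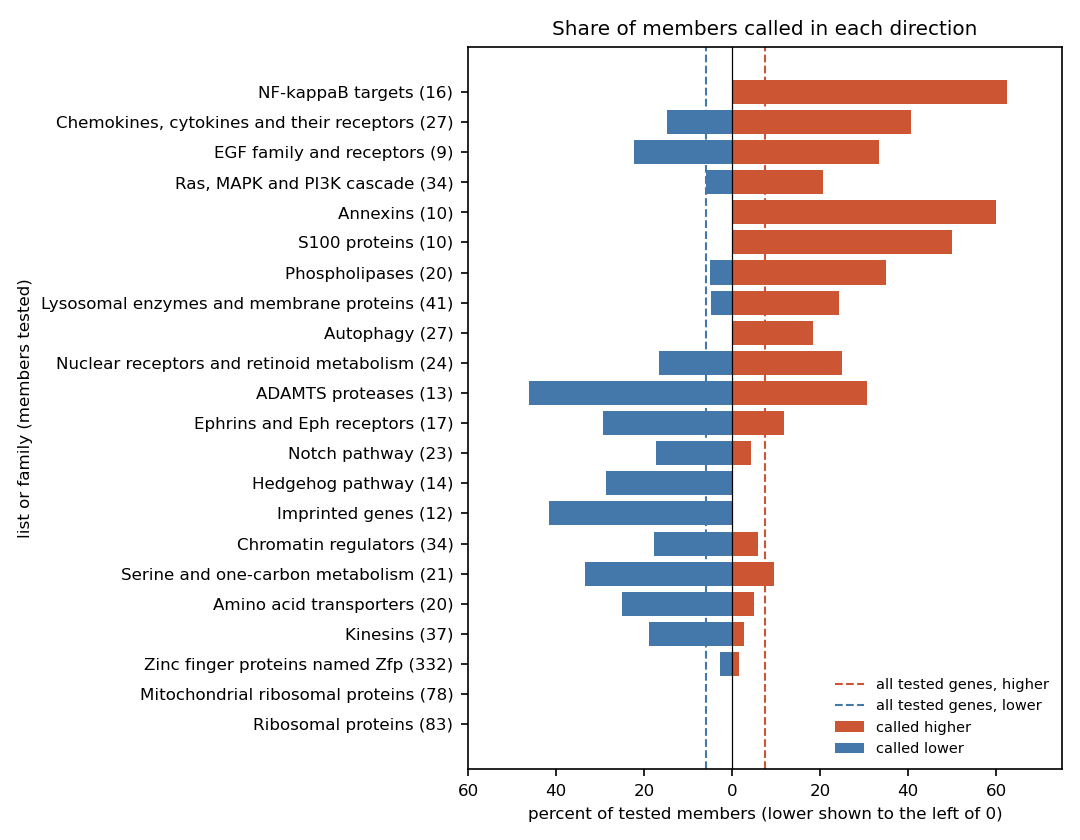
Bars give the percent of tested members of each list or family called higher with FGF2 (red, right of 0) and called lower (blue, left of 0), with the number tested in brackets, and dashed lines give the shares over all tested genes, 7.57% higher and 5.82% lower. The NF-κB, annexin, S100 and autophagy bars lie on the right alone, the Hedgehog and imprinted bars on the left alone, and the ribosomal protein rows are empty.

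Transcript shares, the part of a gene's TPM assigned to each of its transcripts, were compared for 16590 transcripts of 6310 genes with at least 2 transcripts. Only 4 genes (0.0634%) were called by edgeR's test on the transcripts of each gene, combined by Simes' method, and 144 passed at an unadjusted p under 0.05. A test of the gene as a whole called 11 (0.174%). The libraries of the groups did not overlap for 1715 transcripts (10.3%), and the median absolute change of a share was 2.60 percentage points. Shifts were simulated only in genes with at least 2000 reads a library. There the test recovered 19% of genes whose shares moved by 15 points and 85% of those that moved by 30, and 20 unchanged genes were called. Shifts of these sizes and smaller ones could thus be missed at this depth. The median tested transcript had 1325 reads over the 6 libraries, so the simulation does not tell how large a shift would be found in genes with fewer reads.

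The 4 called genes were Dclk2, Eif2b4, Coro2a and Azin2, and in each of them a transcript was estimated at 0 in all 3 libraries of 1 group. Dclk2-209, a transcript of the microtubule-associated kinase Dclk2, was at 0% in DMSO and at 13.9%, 18.3% and 5.91% with FGF2, and the 3 other transcripts tested were at 14.6% to 31.9% in DMSO and 14.6% to 25.1% with FGF2 (Simes adjusted p = 6.33e-10). Eif2b4-212, of a subunit of the translation factor that recycles eIF2, was at 0% in DMSO and at 33.5%, 15.9% and 32.3% with FGF2 (adjusted p = 0.00164). Coro2a-201, of an actin-binding coronin, was at 0% in DMSO and at 52.8%, 64.2% and 29.7% with FGF2, on 183 estimated reads (adjusted p = 0.0137). Azin2-202, of an antizyme inhibitor, was at 19.3%, 4.06% and 10.9% in DMSO and at 0% with FGF2, on 120 estimated reads (adjusted p = 0.0235). A value of exactly 0 can be a failed estimate where transcripts share most of their sequence, so these are listed at 0 and no fold is given. The call of Coro2a-201 was lost whenever 1 DMSO library was left out, and that of Azin2-202 whenever 1 library other than DMSO replicate 2, or the 3 that stood apart, was left out. With FGF2 replicates 2 or 3 left out 9 genes were called, and 7 without DMSO replicate 2 or FGF2 replicate 1.

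Changes between transcripts present in both groups are given for 2 genes picked after their values were seen. Palld encodes palladin, which organizes actin bundles. The share of Palld-203, which has 20 exons and a coding sequence of 3006 bases, was 22.0%, 24.5% and 25.1% in DMSO and 14.1%, 10.1% and 12.5% with FGF2, while Palld-202, with 12 exons and 1989 coding bases, went from 75.2%, 74.97% and 74.1% to 85.4%, 88.0% and 85.7%. The groups did not overlap, and the gene narrowly missed the Simes threshold (adjusted p = 0.0506) and passed the test of the whole gene (adjusted p = 0.0178). Tnks1bp1 encodes a partner of tankyrase. Its shorter transcript Tnks1bp1-201 rose in share from 8.63%, 5.78% and 5.28% to 19.9%, 18.9% and 15.9%, with adjusted p = 0.0606 by Simes and 0.0209 for the whole gene. Irf5, an interferon regulatory factor also picked after its values were seen, had Irf5-202 listed at 0% in DMSO and at 7.79%, 18.9% and 14.9% with FGF2 (adjusted p = 0.0506 by Simes and 0.0196 for the whole gene).

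**Figure D5:**
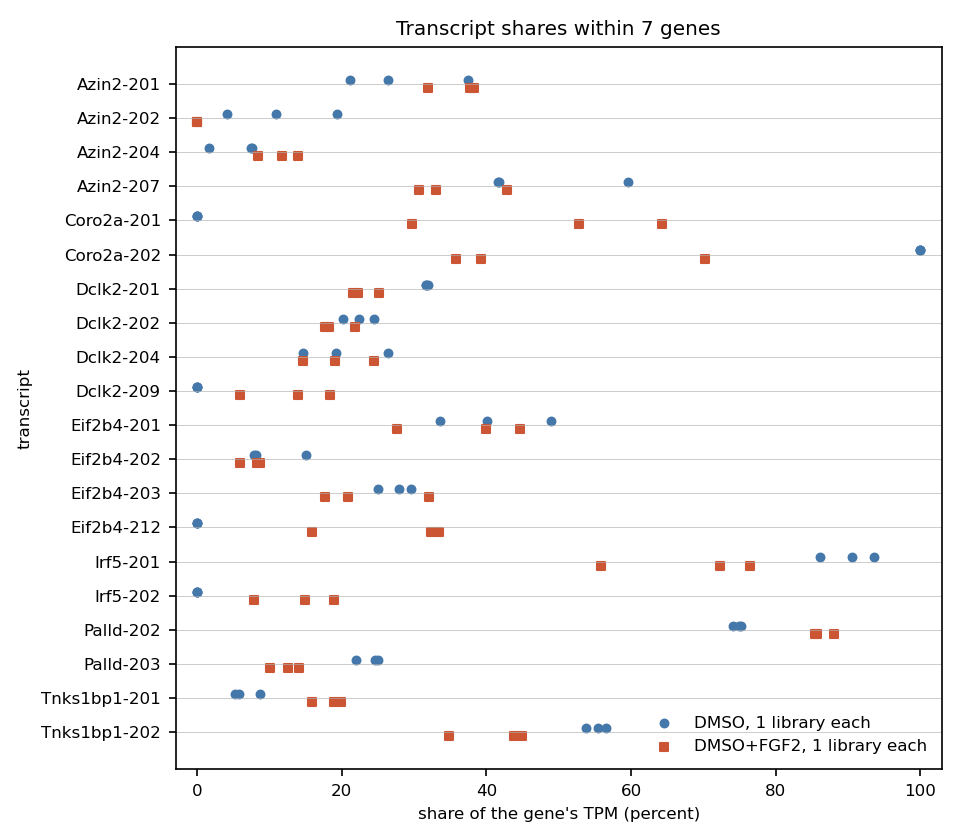
Each row is a transcript of 1 of 7 genes and each point 1 library, placed by the share of the gene's TPM assigned to that transcript (x, percent). Circles are DMSO and squares DMSO+FGF2; Palld-202, Palld-203, Tnks1bp1-201 and Tnks1bp1-202 are above 0 in every library and separate the groups, while Azin2-202, Coro2a-201, Dclk2-209, Eif2b4-212 and Irf5-202 are at 0 in all libraries of 1 group.

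The values of some pseudogenes are uncertain. Gm12918 was listed at 0 in all 3 DMSO libraries and at 0, 116.9 and 20.2 CPM with FGF2, and Gm10221 was listed at 0 in DMSO and at 1.84, 2.64 and 2.00 CPM with FGF2. All of the 31-base sequences of both occur in other genes (100%), and the Gm12918 call was lost without DMSO replicates 2 or 3 or FGF2 replicate 2. Processed pseudogenes together took 0.437% to 0.465% of the reads in DMSO and 0.501% to 0.587% with FGF2 (exact permutation test, p = 0.1, the smallest possible). Gm31520, a transcribed pseudogene with 4.23% shared sequence, fell from 6.47, 7.01 and 4.69 CPM to 1.72, 0.980 and 2.05 CPM (edgeR adjusted p = 5.43e-05).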

How the data were processed

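PolyA RNA of Ocy454 cells was sequenced in 4 groups of 3 libraries, and 6 of the 12 libraries are compared here. The deposited tables hold estimated counts and TPM per transcript for each library, made with Salmon against GRCm39 per the submitters' processing notes, and no Salmon version is given in the sources used here. Transcripts were joined by Ensembl ID without version to the GENCODE M21 names used here, which matched 114656 of 116178 transcripts (13 with the same version), and their estimated counts were summed to 35214 genes and rounded. Genes were tested with edgeR 4.0.16 (R 4.3.3): filterByExpr, TMM scaling, a mean for each of the 4 groups over all 12 libraries and the quasi-likelihood test, with Benjamini-Hochberg adjusted p under 0.05 taken as called over 12542 genes. Transcript shares were computed from the deposited TPM and tested with diffSpliceDGE on counts. Tested transcripts held on average at least 5% of their gene's estimated reads over the 12 libraries and passed a filter on low counts. CPM are scaled by TMM, except in the ranges of cell type markers and for the unmatched transcript ENSMUST00000239432.2, which are per library total. Uncertain genes were found from 31-base sequences shared between transcripts of different genes. The named genes are the 15 largest changes in each direction among called protein-coding genes that averaged 5 CPM or more and did not overlap between groups, the 5 largest gains and losses in CPM, the 4 largest changes in each direction among non-coding genes, up to 4 called members of each list by p, and members printed as not past the test. Il33, Nfkbia, Rarb, Egfr and Dnmt3a fell outside this rule, some list members are not reported here, and members given as bare names complete small counts. The comparison, lists and families were chosen with earlier results of these data known. In data simulated from these libraries, the gene test recovered 75% of 1.5-fold and 91% of 2-fold changes among 12438 tested genes, with 12 false calls. The changes were placed only in genes with a mean of at least 20 reads a library. Alternatives were DESeq2 1.42.0, limma 3.58.1, other scaling, filters, offsets and library sets.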

Additional observations from a re-analysis of the deposited data

Results flagged for a closer look

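For 29 of the 30 leading genes the effect of FGF2 differed between cells with DMSO and cells with BGJ398, by edgeR's test of the interaction, called at an adjusted p under 0.05 over all 12542 genes. The values below are log2 differences, in which the change with FGF2 in DMSO is subtracted from the change with FGF2 under BGJ398. The genes were chosen for a large change in DMSO, and the same change enters the difference. The count of 29 and the sizes are therefore a description, and a high count was likely from the choice alone. Under BGJ398 the log2 change with FGF2 ranged from −0.47 (Eln) to 0.26 (Car9) among the 30 genes, and it was 0.09 ± 0.11 for Tnfrsf9. The differences thus largely restate the change in DMSO. Among the raised genes the differences were −1.80 for Tnfrsf9, −1.78 for Sema7a and −1.61 for Zbp1. They were −1.48 for Hmga1, −1.39 for Msln, −1.38 for Cda and for Cp, −1.37 for Sdf2l1, −1.36 for Plxdc1, −1.31 for Chrnb1 and −1.30 for Spp1. The smaller ones were −1.26 for Car9, −1.23 for Inhbb, −1.19 for Gpr35 and −1.17 for Ndufa4l2. Among the lowered genes the differences were 3.19 for Eln, 3.07 for Alpl, 1.95 for Pappa2 and 1.82 for Npnt. They were 1.65 for Col27a1, 1.55 for Postn, 1.52 for Slit3, 1.51 for Aspn, 1.48 for Sorbs2 and 1.47 for Hmcn1. The smaller ones were 1.34 for Myom1, 1.28 for Col11a1 and for Ptn and 1.27 for Tnc. Over all genes the interaction was called for 532, of which 523 were among the 1680 called in DMSO (31.1%), and the fits share the DMSO libraries.

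Transcripts that matched no name in the annotation used, and so entered no gene, took 0.519% to 0.553% of the reads in DMSO and 0.598% to 0.641% with FGF2. Their mean was 0.618% with FGF2, above the control libraries (exact 2-sided permutation test, p = 0.1, the smallest that 3 against 3 allow). The unmatched transcript ENSMUST00000239432.2 measured 1527, 1672 and 1538 CPM in DMSO and 1970, 2397 and 2200 CPM with FGF2. It was picked as the unmatched transcript with the largest gain, a mean of 610 CPM. The rise of the whole unmatched share, 0.0816 percentage points, includes this gain and lay largely in this transcript.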

How the results depend on the processing

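Against 1680 called genes, 950 higher and 730 lower, leaving out 1 library at a time gave 1018 to 1336 called, 573 to 772 higher and 445 to 564 lower. Fewer libraries were fitted there. Without the 3 libraries that stood apart, an alternative chosen after seeing the data, 2611 were called and 1230 were lower. The 6 libraries alone gave 1099 lower, and length and GC offsets gave 1487 higher, or 1428 with the replicate block added. For these the cause was not tested. The share of called genes that were higher ranged from 52.9% to 61.0%. Against 4 genes with changed transcript shares, leaving out 1 library gave 4 to 9, the whole-gene F test 11, the 6 libraries alone 14, the fit without the 3 libraries 10, and limma on logit shares 1. Of the 30 leading genes, Hmcn1 alone lost its call, with length-scaled TPM.

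Replicates with the same number did not vary together (r −0.037, 0.076 and −0.029 between deviations from the group means), so the labels' numbers were not taken as pairs. With a replicate block 1503 genes were called, 846 higher and 657 lower, and 5 genes had changed transcript shares. In the simulations 75% of 1.5-fold and 91% of 2-fold gene changes were recovered, in genes with a mean of at least 20 reads a library. Of shifts by 30 points, 85% were recovered in genes with at least 2000 reads a library. Changes of these sizes and smaller ones can thus be missed at this depth. Shifts in genes with fewer reads were not simulated.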

Other observations

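Genes of complement, coagulation and fibrinolysis split evenly, with 3 of 20 higher and 3 lower (30% called, against 13.4% of all genes). C3, the central complement protein, rose from 22.7 ± 1.37 to 36.3 ± 1.70 CPM (SD, n = 3). F3, which encodes tissue factor, fell from 68.9 ± 4.93 to 45.5 ± 2.25 CPM, Thbd, the anticoagulant receptor thrombomodulin, from 95.8 ± 3.87 to 67.05 ± 6.57 CPM, and Serpinf1, the anti-angiogenic factor PEDF, from 371 ± 3.86 to 224 ± 13.3 CPM (SD, n = 3). Of 10 genes of polyamine metabolism 2 rose and 1 fell (30% called, against 13.4% of all genes). Smox, which oxidizes spermine, rose by 0.59 ± 0.08 (log2 ± SE), and Sat1, the acetyltransferase that starts polyamine breakdown, by 0.42 ± 0.09, while Odc1, the enzyme that starts synthesis, fell by 0.33 with 31.3% of its 31-base sequences shared with other genes. The Sat1 call was lost without DMSO replicate 3 and the Odc1 call without DMSO replicate 2, and 4 members were called lower without the 3 libraries that stood apart. Of 30 genes of fatty acid oxidation and lipid droplets 3 rose and 0 fell (10% called, below the 13.4% of all genes). Plin2, which coats lipid droplets, was 1 of them and rose from 89.8 ± 2.31 to 126 ± 10.8 CPM (SD, n = 3). Of 8 carbonic anhydrases 2 rose (25% called, against 13.4% of all genes). They were Car9 and the secreted enzyme Car6, which went from 4.67 ± 0.211 to 8.67 ± 1.42 CPM (SD, n = 3).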
